A study of Mus musculus with 384 samples.

Results

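Natural killer (NK) cells and the other innate lymphoid cells arise from lymphoid progenitors, and 6 genes of that pathway were among the 96 TaqMan assays read in single common lymphoid progenitors (CLPs) of the mouse. They are the receptor genes CD122 (Il2rb), Klrb1c (the NK1.1 antigen) and Cd244a (2B4), and the transcription regulator genes Id2, Nfil3 (E4BP4) and Tbx21 (T-bet). The members were taken by symbol or alias from the panel, and all 6 were found. The cells came from the bone marrow of wild-type mice labelled C57/Bl6. The gate took cells without lineage markers and without B220 that were positive for Flt3 and Il7r and low for Kit and Sca1. The 4 plates, P0 to P3, held 360 wells of 1 cell, 16 wells without reverse transcriptase (no-RT), 4 wells of 10 cells and 4 wells of 20 cells. How old the mice were and how many were used is not stated in the labels.

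As background, CD122 is the beta chain shared by the receptors for interleukin 15 and interleukin 2, and its appearance marks progenitors that have entered the NK pathway. Id2 binds E proteins such as the product of Tcf3 and keeps them from DNA, and it is needed by innate lymphoid cells, whereas B cell development needs E proteins, Ebf1 and Pax5. Nfil3 acts early in the NK pathway, and Tbx21 acts later, in NK cells and type 1 innate lymphoid cells.

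A value is a Ct, the cycle at which the amplified product crossed a threshold, so a lower Ct means more cDNA. A Ct below 28 was counted as a product, and the value 40 stands for none. In quality control 347 of the 360 single cells were kept, 86 on P0 and 87 on each other plate, with 22 to 54 assays giving a product (median 43). For no-RT wells the median was 6.5 assays. The 10-cell well of P0 had only 29 assays, against 68 to 71 in the other 10-cell wells and 71 to 78 in the 20-cell wells. Kit, the only marker of the gate with an assay that could be matched, had a product in 97.4% of cells. Among the measured T cell genes, Cd3e and Cd2 had a product in no cell. Cd5 had a product in 9.78% of cells, Cd4 in 10.9%, Gata3 in 14.1% and CD90.2 in 22.8%. CDw199 reached 85.3%, but also reacted in 14 no-RT wells. The plate was the replicate (n = 4). Whether plates came from separate animals is not stated, so the p-values measure only how plates vary, and that variation may be technical. Products of the 6 genes stood clear of the threshold. Of 841 products, 8 had a Ct between 25 and 28 (the latest at 26.8), and in kept cells 0 values lay between 28 and 40.

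In these progenitors Cd244a was detected in most cells, Id2 in a part of them, CD122 and Klrb1c in a minority, and Tbx21 in none. Nfil3 also gave a product in most cells, but in most no-RT wells as well. All shares are percentages of kept cells with a product, as mean ± SD over 4 plates.

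CD122 was detected in 14.4% ± 3.3 of cells, 50 cells in all. The share was 15.1% on P0, 18.4% on P1, 10.3% on P2 and 13.8% on P3. Its Ct in these cells ran from 11.8 to 25.8 with a median of 16.2, and the plate medians lay between 15.4 and 16.7. No no-RT well had a CD122 product. The latest value, on P0, was the only one of the 50 at a Ct of 20 or later.

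Klrb1c, which encodes an activating receptor of NK cells, was detected in 13.3% ± 4.8 of cells, 46 in all. The share was 17.4% on P0 and 17.2% on P2, but 10.3% on P1 and 8.05% on P3. Exact 95% binomial intervals, which cover counting error only, ran from 10.1% to 27.1% on P0 and from 3.30% to 15.9% on P3, so these plates overlapped. Its Ct ran from 14.7 to 24.3, with a median of 17.3. The 7 cells of P3 had a later median, 18.6, than those of the other plates, at 17.0 to 17.4. Klrb1c was also 0 of 16 in no-RT wells.

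Cd244a encodes a receptor of the SLAM family found on NK cells and on some blood progenitors. It was detected in 90.8% ± 2.5 of cells, 315 in all, and between 88.5% and 94.3% on every plate. Its Ct ran from 12.1 to 25.3 with a median of 14.9, and the plate medians lay within 1 cycle, from 14.4 to 15.3. No no-RT well had a Cd244a product.

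Id2 was detected in 43.8% ± 9.2 of cells, 152 in all. Among the 6 genes its share varied most between plates, at 32.6% on P0, 55.2% on P1 and 43.7% on both P2 and P3. The exact 95% intervals of P0 (22.8% to 43.5%) and P1 (44.1% to 65.9%) did not overlap. The Ct ran from 10.1 to 25.8 with a median of 14.7. The median was 14.3 on P0 and 13.9 on P1, and later on P2 (15.5) and P3 (15.6). Id2 had no product in any no-RT well.

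Nfil3 gave a product in 80.1% ± 5.1 of cells, 278 in all, and in 12 of 16 no-RT wells. Its share in cells was 87.2%, 80.5%, 77.0% and 75.9% on P0 to P3. The no-RT wells with a product numbered 4, 3, 3 and 2 of 4 on the same plates. The Ct ran from 10.8 to 26.8 in cells (median 15.8) and from 13.3 to 23.1 in no-RT wells (median 16.0), so the groups overlapped over most of their range. Among the 7 assays with a no-RT product on at least 3 plates, 2 differed in level between cells and no-RT wells (28.6%), and Nfil3 was not 1 of them. Its level, 28 minus Ct, was 0.79 cycles higher in cells (SE 0.94, limma adjusted p = 0.585). Neither by share nor by level were its products in cells told apart from those in no-RT wells, and the Nfil3 values that follow carry this limit.

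A Tbx21 product was found in 0 of 347 cells, and this count allows up to 0.865% of cells to give one (3 counts, counting error only). It had none in the 16 no-RT wells, the 4 wells of 10 cells or the 4 wells of 20 cells. No well of the series shows that this assay reacts, so the limit says nothing about cells that hold the transcript.

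**Figure D1:**
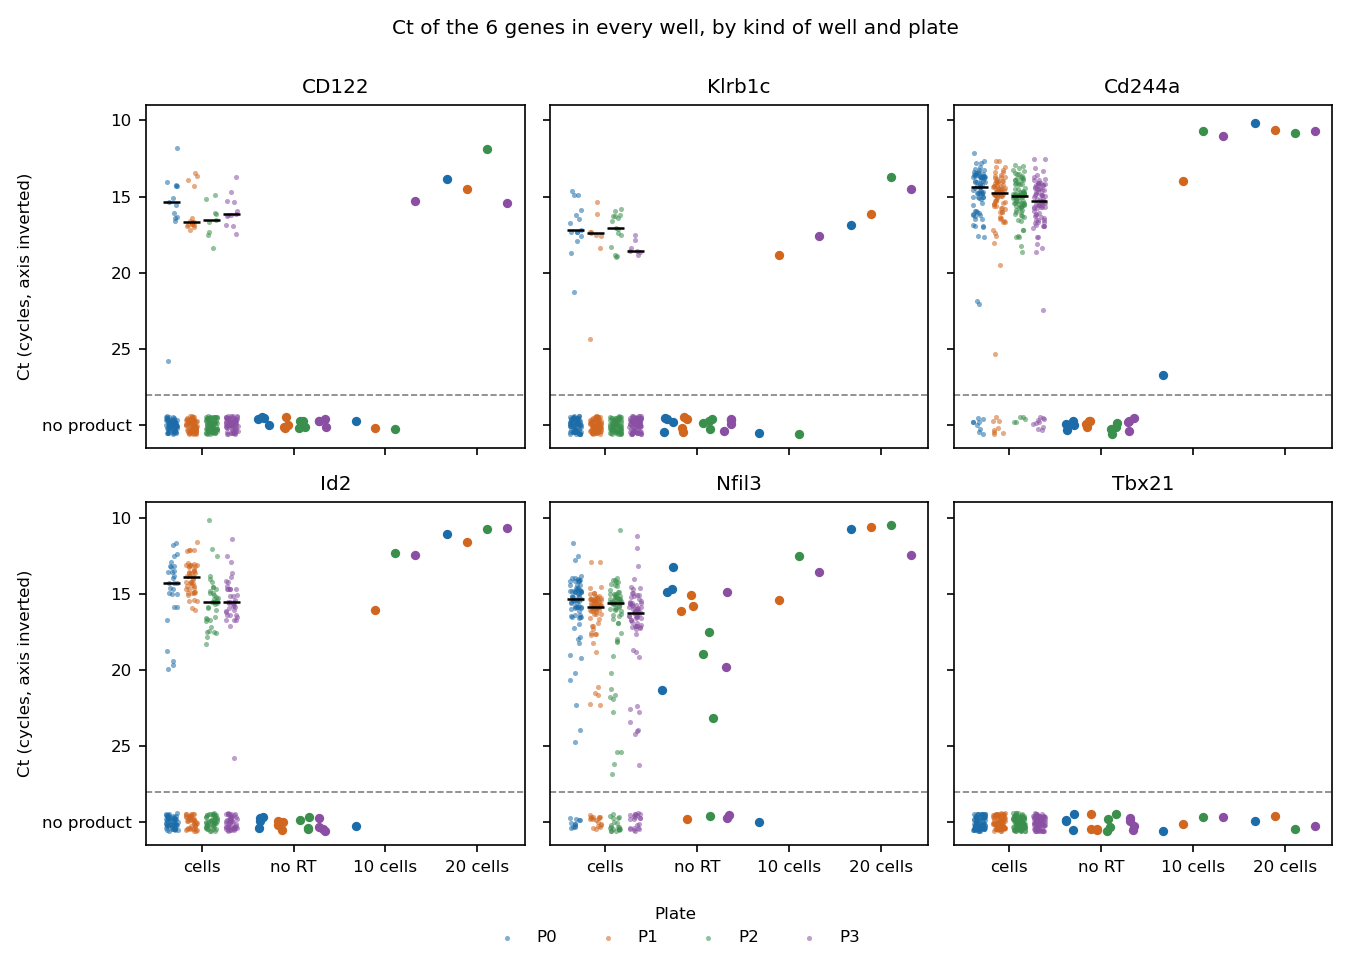
Ct in cycles (vertical axis, inverted so that more cDNA is higher) of the 6 genes in every kept single cell, no-RT well, 10-cell well and 20-cell well, coloured by plate. Black bars are plate medians of cells with a product, the dashed line is the limit of 28, and points beneath it are wells with no product. Nfil3 shows no-RT products in the range of the cells, and Tbx21 has no product anywhere.

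Against the no-RT wells, 4 of the 6 genes were called more often detected in cells: Cd244a, CD122, Id2 and Klrb1c (limma on arcsine-transformed shares, adjusted p of at most 2.47e-05). The same held for 74 of the 88 assays tested, 84.1%, so the call does not set these genes apart. On the log2 odds scale Klrb1c was not called (0.44, limma adjusted p = 0.184). Nfil3 was not called (limma adjusted p = 1), and Tbx21 had no value to test. Only 16 no-RT wells were run, and a count of 0 among them allows up to 20.6% (exact upper 95% limit). Cd244a and Id2 stood above that limit. CD122 and Klrb1c did not, so for these 2 genes the no-RT wells are too few to bound the background below the share in cells.

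The wells of 20 cells had a product for 5 of the 6 genes on all 4 plates. CD122 had a Ct of 13.9, 14.5, 11.9 and 15.4 on P0 to P3. Klrb1c had 16.9, 16.1, 13.7 and 14.5 in the same wells. These rarer genes were thus found in every well of 20 cells, and at an earlier Ct than the median single cell of the same plate. The mean amount in the single cells of each plate, times 20, predicts 12.8, 13.5, 15.1 and 14.1 for CD122 on P0 to P3. For Klrb1c it predicts 14.5, 15.9, 15.0 and 17.6. The measured values lay on both sides of these, so the amounts in the pools did not follow the prediction closely. The measured Ct of Cd244a lay between 10.2 and 10.8, that of Id2 between 10.7 and 11.6, and that of Nfil3 between 10.5 and 12.5.

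The wells of 10 cells gave fewer products. CD122 was found in 1 of 4, on P3 at a Ct of 15.3, where the single-cell shares of each plate add up to 3.11 of 4 wells. Klrb1c was found in 2 of 4, on P1 at 18.8 and P3 at 17.6, against 2.93 predicted. On P1 and P2 the CD122 product was missing from wells that had 71 and 68 assays. Id2 was missing on P0 only, with a Ct of 16.1, 12.4 and 12.4 on P1 to P3. Cd244a came up at 26.7 on P0 and at 14.0, 10.7 and 11.0 on the other plates. The difference between 20-cell and 10-cell wells was 5.02 cycles for Cd244a (SE 3.42), 2.59 for Id2 (SE 1.1) and 2.73 for Nfil3 (SE 0.98), each with a limma adjusted p of 0.358. Without the 10-cell well of P0 the Cd244a value was 1.32. Of the 59 assays tested none was called by limma (0%), and 4 had an unadjusted p under 0.05.

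The genes were next followed across the B lineage genes of the same cells, as NK potential is known to be lost when CLPs enter the B lineage. The B genes were 3: Ebf1 and Pax5, which encode B lineage transcription factors, and Ly6d, which encodes a surface protein of B-primed CLPs. Of the kept cells, 62 had a product for none of them, 67 for 1, 131 for 2 and 87 for all 3. Ebf1 and Ly6d without Pax5 made up 129 of the 131 cells with 2.

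CD122 and Klrb1c differed in opposite ways between cells with 2 and with all 3 B genes. CD122 was detected in 9.94% ± 6.1 of cells with no B gene, 14.0% ± 6.6 with 1, 23.6% ± 5.3 with 2 and 3.47% ± 2.3 with all 3. On every plate the share with 2 B genes (16.7% to 28.1%) was above the share with all 3 (0% to 5%). Klrb1c was detected in 5.03% ± 3.8, 3.45% ± 4.0, 10.2% ± 6.6 and 32.6% ± 16.0 of these cells. With all 3 B genes its share was 50.0% on P0, 27.3% on P1, 40.0% on P2 and 13.0% on P3, in each case the highest of the plate.

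Id2 was detected in 65.8% ± 10.9 of cells with no B gene, 44.6% ± 15.2 with 1, 47.6% ± 14.6 with 2 and 21.8% ± 7.4 with all 3. Its highest share on each plate was in cells with no B gene, 57.1% to 81.8%, and its lowest in cells with all 3, 13.6% to 30.4%. Cd244a went from 81.1% ± 6.8 to 92.1% ± 8.6, 92.5% ± 2.4 and 93.3% ± 4.5, with overlapping plates. The Nfil3 assay gave 82.1% ± 11.7, 86.8% ± 4.8, 83.3% ± 8.0 and 67.5% ± 8.5. No test was run on these 4 classes. The pairs behind them were tested one by one.

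**Figure D2:**
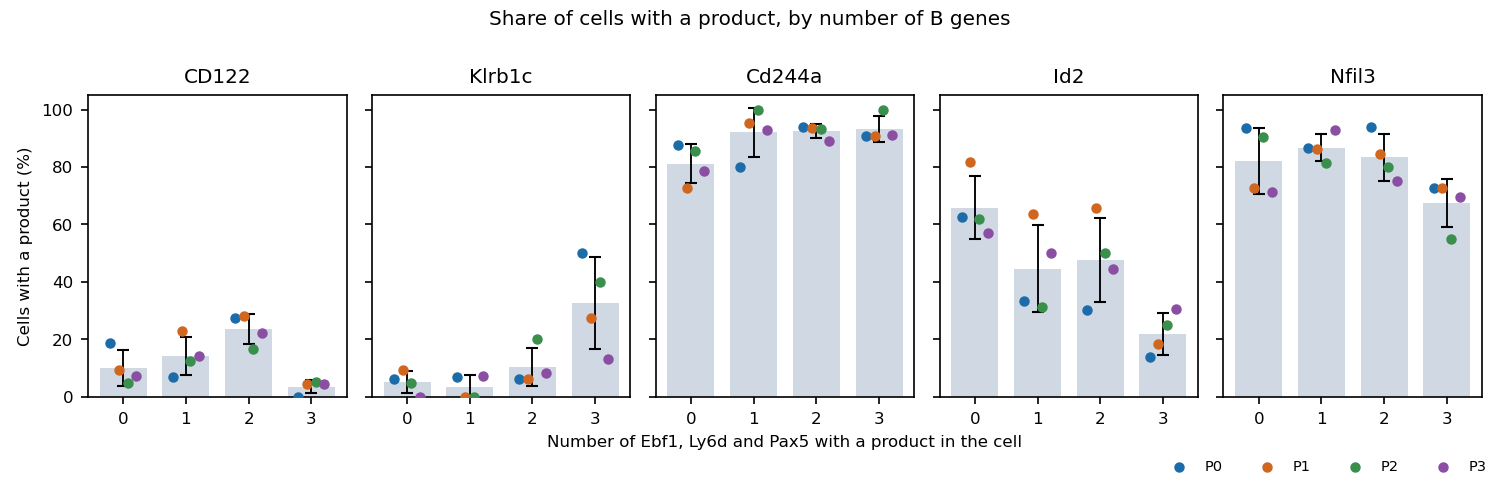
Share of cells with a product (%, vertical axis) for CD122, Klrb1c, Cd244a, Id2 and Nfil3, by how many of Ebf1, Ly6d and Pax5 had a product in the cell (horizontal axis). Bars are means over 4 plates with SD, and points are plates. CD122 stands at 23.6% with 2 B genes and 3.47% with 3, and Klrb1c at 10.2% and 32.6%.

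Co-detection was measured within each plate as the log2 odds ratio of finding both genes in a cell, with 0.5 added to each count, and tested against 0 over the 4 plates. A gene entered if its share lay between 5% and 95% and under 4 no-RT wells had a product, which 49 genes met. CD122, Klrb1c, Cd244a and Id2 were among them, Nfil3 was left out by its no-RT wells and Tbx21 by its lack of products. Of the 1176 pairs, 35 were positive (2.98%) and 19 negative (1.62%). Of the 186 pairs that hold at least 1 of the 4 genes, 4 were positive and 3 negative, or 3.76% against 4.59% of all pairs. All 7 involved CD122 or Klrb1c, and each had the same sign on all 4 plates. Cd244a and Id2 had 0 calls each by limma among 48 pairs, with 12 and 5 at an unadjusted p under 0.05. The median log2 odds ratio of the 186 pairs was 0.11, as over all pairs.

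Klrb1c was detected with Pax5. A Klrb1c product was found in 33.0% ± 16.9 of cells with Pax5 and in 6.60% ± 1.9 of cells without it. By plate, P0 to P3, the share was 50.0%, 27.3%, 42.9% and 12.0% with Pax5 and 6.25%, 4.62%, 9.09% and 6.45% without it, so the share was higher with Pax5 on each plate. The 2 genes were found together in 29 cells, where independent detection within plates gives 11.7. The log2 odds ratio was 2.60 ± 1.14 (SD, limma adjusted p = 0.0146), at 3.75, 2.81, 2.82 and 1.02 on P0 to P3. The value was smallest on P3, where Klrb1c was rarest and 3 cells had both. The call was kept without P2 (limma adjusted p = 0.0425) and without P3 (0.0291), and lost without P0 (2.22, limma adjusted p = 0.0609) and without P1 (2.53, limma adjusted p = 0.0861).

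Klrb1c was also detected with Ly6d, at 1.78 ± 0.70 (limma adjusted p = 0.0447), with 41 cells holding both against 31.8 under independence. Of these 41 cells, 28 had all 3 B genes, so this call is not independent of that with Pax5. On P3 all 7 cells with Klrb1c had Ly6d, so the size of the P3 value, 2.70, depends on the 0.5 added to each count. The value of Klrb1c with Ebf1 was 1.49 ± 0.95 (limma adjusted p = 0.115), positive on all 4 plates. With the FOX01 assay it was 0.52 ± 0.71 (limma adjusted p = 0.630), and with TCF3E2A 0.94 ± 0.43 (limma adjusted p = 0.282). FOX01 and TCF3E2A are the panel's names, read here as Foxo1 and the E protein gene Tcf3. The Ly6d call was lost whichever plate was left out, with values between 1.48 and 2.05 (limma adjusted p from 0.0861 to 0.203), and also with plates centred (1.66, limma adjusted p = 0.0655).

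CD122 was detected apart from Pax5. It was found in 3.33% ± 2.2 of cells with Pax5 and in 18.3% ± 4.7 of cells without it. Cells with both numbered 0, 1, 1 and 1 on P0 to P3, and 3 in all against 13.0 under independence. The log2 odds ratio was -2.14 ± 1.07 (limma adjusted p = 0.0320), at -3.56, -2.14, -0.99 and -1.87 on P0 to P3. On P0, where no cell had both, the size is set by the 0.5 added to each count. The call was kept without P2 (-2.52, limma adjusted p = 0.0287) and lost without P0 (-1.66), P1 (-2.14) or P3 (-2.23), with limma adjusted p from 0.117 to 0.127.

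With the other B genes CD122 gave no call. Its log2 odds ratio was 0.18 ± 0.43 with Ebf1, 0.62 ± 0.82 with Ly6d, -0.04 ± 0.52 with FOX01 and 0.26 ± 1.33 with TCF3E2A (limma adjusted p of at least 0.564). The plates differed in sign for each of these 4 pairs. The value with TCF3E2A ranged from -1.19 on P0 to 1.88 on P2. Of the 90 cells with Pax5, 87 had Ebf1 and Ly6d too. The ratios with Ebf1 and Ly6d therefore include cells in which CD122 was rare. CD122 was found in 23.6% of cells with 2 B genes and in 3.47% with all 3.

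Id2 gave no call with a B gene at this threshold, although its values with Ebf1, Ly6d and Pax5 were negative on all 4 plates. With Pax5 the log2 odds ratio was -1.78 ± 1.02 (limma adjusted p = 0.0637), from -0.61 on P3 to -3.09 on P1. Id2 was found in 22.9% ± 9.7 of cells with Pax5 and 50.9% ± 12.1 of cells without it. With Ebf1 it was -1.56 ± 0.84 (limma adjusted p = 0.0911), and Id2 was found in 37.3% ± 8.7 of cells with Ebf1 and 63.0% ± 13.5 of cells without. Both pairs were called when only genes in 10% to 90% of cells entered (limma adjusted p = 0.0312 and 0.0494). They were also called with cells split by number of assays (0.0222 and 0.0235) or with 1 added to each count (0.0147 and 0.0262). The split and the larger added count also called more of all the pairs tested than the main fit did, so these calls are not particular to Id2. Neither Id2 pair was called with any plate left out (limma adjusted p from 0.101 to 0.321). With Ly6d the value was -0.96 ± 0.45 (limma adjusted p = 0.277). With TCF3E2A, which encodes a binding partner of Id2, it was 0.79 ± 0.92 (limma adjusted p = 0.449), and negative on P2 only.

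Cd244a had positive mean values with all 5 B genes and no call, from 0.61 ± 0.94 with Pax5 to 1.57 ± 0.81 with FOX01 (limma adjusted p = 0.0850). Only 32 cells lacked a Cd244a product, so these ratios rest on few cells, for example 13 cells without Cd244a and without Ebf1. Cells with Cd244a also had more assays with a product, 41.9 ± 0.20 against 38.3 ± 1.9 in cells without it, higher on all 4 plates. With cells split by number of assays, the value was 0.21 with Pax5 and 1.30 with FOX01 (limma adjusted p = 0.825 and 0.0718). Over the 20 pairs of the 4 genes with the 5 B lymphoid genes in the test, 2 were positive and 1 negative, or 15% against 4.59% of all pairs, with a median of 0.61 against 0.11. The calls were Klrb1c with Pax5, Klrb1c with Ly6d and CD122 with Pax5. They share genes and are not independent, and the 15% was not tested against the share of all pairs.

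**Figure D3:**
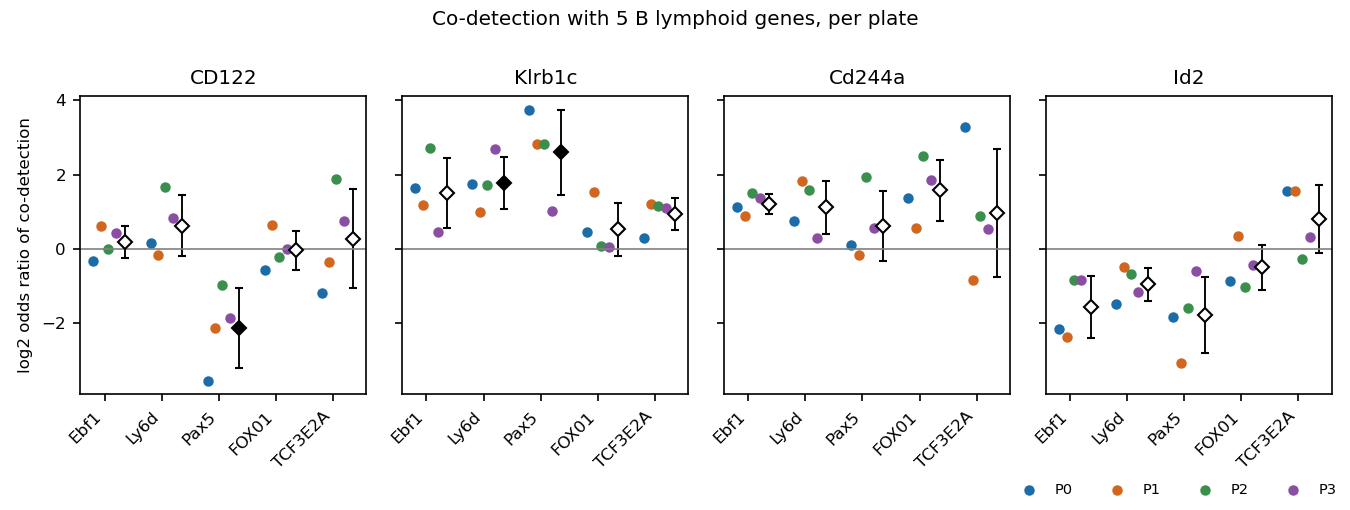
Log2 odds ratio of co-detection (vertical axis) of CD122, Klrb1c, Cd244a and Id2 with 5 B lymphoid genes. Coloured points are plates, and diamonds are means over 4 plates with SD, filled where the limma adjusted p was under 0.05. Klrb1c with Pax5 lies above 0 and CD122 with Pax5 below 0 on all plates, and all Id2 points with Ebf1, Ly6d and Pax5 lie below 0.

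The receptor genes CD122 and Klrb1c were found together less often than independent detection gives. A single cell, on P0, had both, against 6.44 under independence. The log2 odds ratio was -1.75 ± 0.62 (limma adjusted p = 0.0447), negative on all 4 plates, and the call was lost whichever plate was left out (-1.56 to -2.0, limma adjusted p from 0.0682 to 0.173). With 0 or 1 such cell on a plate, the size depends on the count added. With 1 in place of 0.5 it was -1.01 (limma adjusted p = 0.141). It was -1.06 (limma adjusted p = 0.127) with cells split by number of assays. Since both genes vary with Pax5, cells with and without Pax5 were also counted apart. Among 257 cells without Pax5, 47 had CD122 and 17 Klrb1c, and 1 had both against 2.94 under independence. Among 90 cells with Pax5, 3 had CD122 and 29 Klrb1c, and 0 had both against 0.821. These counts are too small to show a difference within either class.

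The other 5 pairs among CD122, Klrb1c, Cd244a and Id2 were not called. CD122 with Id2 stood at 0.87 ± 0.59 (limma adjusted p = 0.342), positive on all 4 plates, with 29 cells holding both against 22.2 under independence. Klrb1c with Id2 stood at -0.65 ± 1.13 (limma adjusted p = 0.585). CD122 was found in 19.2% ± 6.4 of cells with Id2 and in 10.9% ± 1.3 of cells without. Cd244a stood at 0.68 ± 1.74 with CD122, -0.51 ± 1.36 with Klrb1c and -0.69 ± 0.61 with Id2, each with 1 plate of the opposite sign. Of the 4 genes, cells had a product for 0, 1, 2, 3 and 4 in 9, 157, 138, 42 and 1 cases. Independent detection within plates gives 13.4, 145.6, 148.9, 36.5 and 2.50. The single cell with all 4 was the one on P0 with both CD122 and Klrb1c.

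Outside the B genes, the strongest partners of each gene were taken in both directions. Klrb1c was detected with Bst1, a surface enzyme of the NAD pathway, at 1.92 ± 0.31 (limma adjusted p = 0.0246, 16 cells against 7.39). It was also detected with Gfra2, a receptor of the GDNF family, at 2.02 ± 1.25 (limma adjusted p = 0.0493, 25 cells against 11.5). The Gfra2 value was 2.54 to 2.82 on P0, P1 and P2 but 0.15 on P3. Without P3 it was 2.64 and called (limma adjusted p = 0.0401), and with any other plate left out it was not called. Nor was it called with plates centred (1.89, limma adjusted p = 0.0696) or without the limit on no-RT wells (2.02, limma adjusted p = 0.0524). Bst1 kept its call without P2 only (limma adjusted p = 0.0425). Whether the Bst1 and Gfra2 calls are separate from that of Klrb1c with Pax5 was not tested. The lowest values of Klrb1c, after CD122, were with the G-CSF receptor Csf3r (-1.64 ± 1.12) and the progenitor factor Hoxa9 (-1.35 ± 0.79), neither called.

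CD122 was detected apart from Csf1r, the M-CSF receptor, at -2.06 ± 0.92 (limma adjusted p = 0.0320), with 3 cells holding both against 11.2. On P2 and P3 no cell had both, so the sizes there (-2.54 and -3.11) depend on the 0.5 added to each count. On P0 and P1 the values were -1.37 and -1.21. The Csf1r call was lost whichever plate was left out (limma adjusted p from 0.0551 to 0.159). The highest CD122 value was with the gut-homing integrin gene Itgb7, 1.46 ± 0.17, from 1.24 to 1.61 on the plates but not called (limma adjusted p = 0.0712). The Itgb7 value rests on 7 cells with both, 3, 1, 1 and 2 on P0 to P3, against 3.65 under independence. Next came the TCF assay (1.15 ± 0.65, with no cell holding both on P2) and CD284 (1.12 ± 1.29). No P2 cell had a CD284 product, so the P2 value of that pair (3.05) comes from the 0.5 added to each count, and without P2 the pair was at 0.48 (limma adjusted p = 0.726). For Cd244a the highest were Hhex (2.21 ± 1.74), Cd34 (2.19 ± 2.39) and Gfi1 (1.81 ± 1.40), and the lowest Csf1r (-1.56 ± 1.23), Itgb7 (-1.29 ± 1.58) and Cd38 (-0.76 ± 0.58), with no call. With cells split by number of assays, 5 of these 6 were called, all but Cd38 (limma adjusted p from 0.0211 to 0.0499). These 6 were picked by their ratios in the same data. The split setting called 96 of all 1176 pairs, more than without the split. Without P0 the pair of Cd244a with Cd34 was called (3.10, limma adjusted p = 0.0390). For Id2 the highest were Il12rb1 (1.12 ± 1.01), Itgb7 (1.11 ± 1.43) and Tnfrsf1a (0.87 ± 0.26), and the lowest beside Pax5 and Ebf1 was Bst1 (-1.37 ± 1.34), again with no call. The 16 pairs with the T lymphoid genes Cd4, Cd5, Gata3 and CD90.2 gave 0 calls by limma (1 at an unadjusted p under 0.05).

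The amount of product was then compared between cells with and without each B gene, over cells that had the product at all. At least 3 cells on each side of every plate were asked for, which 165 combinations of gene and B gene met. Of these, 11 were higher with the B gene (6.67%) and 13 lower (7.88%). CD122 never entered, and Klrb1c entered for Pax5 only. Of the 10 combinations with Cd244a, Id2, Nfil3 or Klrb1c, 3 were lower and 0 higher by limma (1 higher at an unadjusted p under 0.05), with a median of -0.49 cycles against -0.12 over all 165. All 3 were Nfil3.

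The Nfil3 level was 11.2 ± 0.61 in cells with Ebf1 and 12.4 ± 0.43 in cells without, a difference of -1.22 cycles (SE 0.19, limma adjusted p = 0.00940). The plates gave -1.13, -0.81, -1.51 and -1.43 for P0 to P3. It was 10.7 ± 0.84 with Pax5 and 11.8 ± 0.42 without, a difference of -1.14 cycles (SE 0.23, limma adjusted p = 0.0256). With Ly6d the difference was -0.92 cycles (SE 0.23, limma adjusted p = 0.0476), smallest on P0 (-0.24). All 3 differences were negative on all 4 plates. Relative to the mean of the reference genes of the same cell, they were -0.92 for Ebf1 (limma adjusted p = 0.0577), -1.18 for Pax5 (0.0308) and -0.92 for Ly6d (0.0644), so that only Pax5 kept its call. Without quality control of wells the Ly6d call was lost (-0.92, limma adjusted p = 0.0522). Without P0 all 3 calls were kept, without P1 only that for Ebf1 (limma adjusted p = 0.0228), and without P2 or P3 none, at values between -0.75 and -1.15.

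A tail of late products belongs to these values. Of the 278 cells with an Nfil3 product, 28 had a Ct of 20 or later (10.1%), against at most 4.35% for the other detected genes. Such late products made up 18.0% of those in cells with Pax5 (11 of 61) and 7.83% in cells without it (17 of 217). For Ebf1 they were 10.9% (22 of 201) and 7.79% (6 of 77). The medians differed less than the means, at a Ct of 16.0 with Pax5 and 15.6 without, and 15.9 with Ebf1 and 15.3 without. On P0 the medians were 15.3 with Pax5 and 15.4 without. The assay also reacted in no-RT wells, 2 of 12 products there being as late. Whether the level difference is one of Nfil3 mRNA was not tested.

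**Figure D4:**
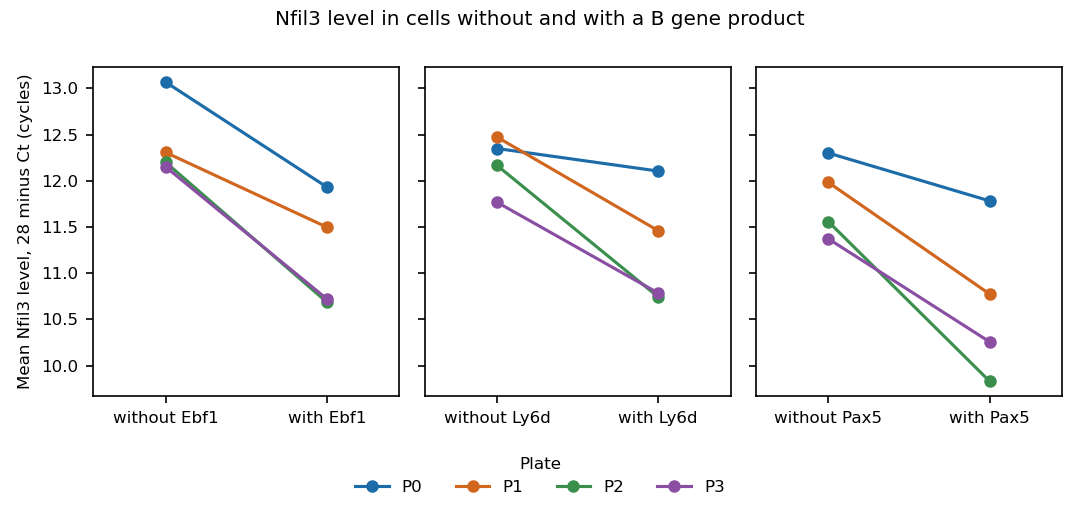
Mean level of the Nfil3 product, as 28 minus Ct in cycles (vertical axis, not starting at 0), over cells with a product on each of 4 plates, in cells without and with Ebf1, Ly6d or Pax5. Lines join the values of a plate. The value with the B gene is lower on every plate, with differences from -0.24 to -1.73 cycles.

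For the other genes no level difference was called. Klrb1c stood at a level of 10.8 ± 0.60 in its 29 cells with Pax5 and 9.62 ± 1.06 in its 17 cells without, a difference of 1.18 cycles (SE 0.43, limma adjusted p = 0.138). It was positive on 3 plates and -0.08 on P2. Id2 was lower by 0.75 cycles in its 21 cells with Pax5 (SE 0.35, limma adjusted p = 0.224), and by 0.11 relative to the reference genes. Cd244a differed by -0.14 cycles with Ebf1, -0.03 with Ly6d and -0.41 with Pax5 (limma adjusted p of at least 0.264).

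Over cells that held both products, Spearman's rho between levels was 0.45 for CD122 and Cd244a (48 cells), 0.38 for Cd244a and Id2 (135 cells) and 0.0044 for CD122 and Id2 (29 cells). These are descriptions over cells that share plates and differ in yield. The level of each gene against the mean level of the reference genes of its cell gave a rho of 0.25 for Klrb1c, 0.32 for Cd244a, 0.33 for CD122, 0.36 for Nfil3 and 0.42 for Id2.

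The panel held 5 further genes of an NK and innate lymphoid list of 33, 11 measured in all. Of the 11, 9 were called above no-RT wells by limma, beside 74 of the 88 assays tested (84.1%). Tbx21 is among the 11 but had no value to test. The median share was 43.8% against 33.4% over all assays. It counts Nfil3 at 80.1%, a share not told apart from no-RT wells, so no difference is read from it. Il2rg, the common gamma chain with which CD122 forms a receptor, was found in 97.1% ± 2.7 of cells. Itga4, an integrin gene, was found in 99.1% ± 1.1 and Notch1 in 98.3% ± 0.66. Gata3, a factor of T and innate lymphoid cells, was found in 14.1% ± 2.4 and Itgb7 in 7.50% ± 3.4. Of these, Gata3 and Itgb7 entered the pair test, and their 8 pairs with CD122, Klrb1c, Cd244a and Id2 gave 0 calls by limma (3 at an unadjusted p under 0.05). The assays for Klrg1 and LY49C_I, receptors of mature NK cells that were added to the list after the assay names were seen, had no product in any kept cell or pooled well.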

How the data were processed

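Single CLPs were sorted into lysis buffer, reverse transcribed and pre-amplified with all 96 TaqMan assays, and read on a Fluidigm dynamic array, per the labels' protocols. The values are Ct cycles, an unnormalized readout that the authors deposited. The reading software is not stated in the labels. All columns matched a sample by title (0 unmapped). Assay names were matched to a RefSeq gene table, used for names only, and assay positions were not analysed here. No depth applies to Ct values: precision is limited by the number of plates and wells.

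A product was a Ct below 28. Single-cell wells needed a product for over 50% of 4 reference genes, and no fewer assays than 50% of the plate's median. Shares, levels (28 minus Ct) and log2 odds ratios were computed per plate and tested with limma 3.58.1 (R 4.3.3). P-values were adjusted by Benjamini-Hochberg over every feature of a comparison, and the threshold was 0.05. Exact intervals are at 95%. Besides the 6 genes, the text names all measured B lymphoid genes in the pair test, the 3 partners with the highest and the 3 with the lowest log2 odds ratio of each gene, and the measured NK and innate lymphoid genes. The members and lists were chosen with earlier results of these data known. The counts of CD122 and Klrb1c within Pax5 classes and of late Nfil3 products were chosen after their values were seen.

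Each comparison was tested on simulated data. The simulated plates shared the same share and level of each assay, so variation between plates, on which the p-values rest, was not simulated. Quality control of wells and the limit on no-RT wells were not part of the simulation either. The detection test also called simulated assays of equal share whose no-RT wells were all alike, hence the exact limit beside it. The plate is shared by all groups and pairs them by the labels. Deviations from the group means correlated between -0.19 and 0.05 for cells and no-RT wells of a plate, and between -0.36 and 0.21 for 20-cell and 10-cell wells. Alternatives were each plate left out, no quality control, other Ct limits, the plate as a block, other transformations, pseudocounts and filters, cells split by number of assays, centred plates, and levels relative to reference genes. The P0 10-cell well left out, and the list with Klrg1 and LY49C_I, were added after seeing the data.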

Additional observations from a re-analysis of the deposited data

Results flagged for a closer look

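In 8 of 78 sets of plate values looked at, 1 plate stood apart from the other 3 by Dixon's test at the 95% level. Chance alone gives this in about 1 tested set in 20. The 78 include sets that could not be tested, those of Tbx21 and those with fewer than 4 products in the 10-cell wells. The Nfil3 Ct of the 20-cell well was 12.5 on P3, against 10.5 to 10.8 on the other plates. The log2 odds ratio of Klrb1c with Gfra2 was 0.15 on P3, against 2.54 to 2.82 elsewhere. That of Klrb1c with TCF3E2A was 0.30 on P0, against 1.09 to 1.19. CD122 with TCF gave 0.18 on P2, against 1.37 to 1.61, and CD122 with CD284 gave 3.05 on P2, against 0.28 to 0.58. No P2 cell had a CD284 product, so that P2 value comes from the 0.5 added to each count. No P2 cell had both CD122 and TCF, so the positive sign of the TCF value on P2 also comes from the 0.5 added. Cd244a with Itgb7 gave -3.64 on P2, against -0.35 to -0.80, and Cd244a with Cd38 gave 0.11 on P0, against -1.03 to -1.05. The level of Id2 in cells with Ebf1 minus cells without was -1.45 cycles on P3, against -0.17 to 0.01 on the other plates. The cause was not tested for the others.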

How the results depend on the processing

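The calls for pairs rest on all 4 plates. With each plate left out in turn, the number of pairs called was 11 to 43 in place of 54, and of pairs with CD122, Klrb1c, Cd244a or Id2 it was 0 to 3 in place of 7. The 7 pairs kept their direction in every such fit and under each other setting run, but with plates centred 5 of the 7 were still called, and 6 with 1 added, with cells split or without the limit on no-RT wells. Calls of level by B gene numbered 8 to 25 (24 with all plates), calls of level against no-RT wells 0 to 2 (2 with all), and calls between 20-cell and 10-cell wells 0 to 1 (0 with all). Without quality control 348 pairs were called, 37 of them with 1 of the 4 genes. With 1 added to each count there were 108 and 21, with cells split by number of assays 96 and 18, and without a limit on no-RT wells, when Nfil3 also entered, 12 pairs with 1 of 5 genes. The exact limit of no-RT wells was passed by 47 assays in place of 74. Between 20-cell and 10-cell wells, 1 assay was called with a Ct below 25 and 1 without the P0 well. With the plate as a replicate block, 73 assays were called above no-RT wells, 2 in level and 0 between pooled wells, and the block changed no call of the 6 genes. Values that were not called and changed sign follow. With log2 odds, Nfil3 in cells against no-RT wells was 0.61 (-0.0012 on the arcsine scale, -0.092 to 0.12 with plates left out). With cells split, CD122 was at -0.11 with Ebf1 and -0.36 with Cd244a. Without quality control, CD122 was at 0.27 with FOX01, Klrb1c at 0.032 with Cd244a, and Cd244a at 0.10 with Id2. With plates left out, CD122 was at -0.27 to 0.14 with FOX01 and -0.27 to 0.75 with TCF3E2A. The Cd244a level differed by 0.25 with Ebf1 and 0.061 with Ly6d relative to reference genes, and by 0.016 with Ly6d at a Ct below 25 (-0.24 to 0.20 with plates left out). The cause was not tested. Precision is limited by 16 no-RT wells and by pairs of rare genes that rest on 0 to 3 cells.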
